A study of Rattus norvegicus with 100 samples.

Results

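Klf4, Klf6, Klf10, Cebpb and Myc are genes of transcription factors that respond to growth signals, and they are described here in the uterus and pituitary gland of immature female rats given ethinylestradiol. The members were the 5 genes of that list, read from every probe set of theirs on the array. They were 5 of the 10411 genes that had a probe set of their own, and they held 6 of the 15923 probe sets. Klf6 had 2 probe sets, and each of the other members had 1. In the rat assembly GRCr8 of RefSeq, Klf4 lies at chr5:75074107-75079182, Klf6 at chr17:69449483-69458478, Klf10 at chr7:71352612-71358680, Cebpb at chr3:176817005-176818436 and Myc at chr7:95483105-95488031.

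Krüppel-like factors bind GC-rich and CACCC sequences through zinc fingers in their C-terminal part. Klf4 is known from epithelia, where it restrains the cell cycle and drives differentiation, and as one of the factors that return differentiated cells to a pluripotent state. Klf6 is a widely expressed family member described as a tumour suppressor, and Klf10 was first described as an early gene of transforming growth factor beta signalling. Cebpb, CCAAT/enhancer binding protein beta, is a leucine zipper factor of inflammation, fat cell formation and the uterine response to steroid hormones. Myc pairs with Max to bind E-box sequences, and it is known for raising ribosome production, metabolism and entry into the cell cycle. In the rodent uterus, estrogen is known to switch on early genes of this kind within hours, before the cells divide.

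The assay was a uterotrophic assay of OECD design, in which growth of the uterus reports an estrogenic compound, here ethinylestradiol (EE), a synthetic estrogen of contraceptive pills. Every group was female and immature. The labels state no strain, dose, route, vehicle or dosing schedule, nor whether an array stands for 1 animal or a pool. Uterus was taken at 2, 4, 8, 24, 28, 48 and 72 h, with 5 control and 5 EE arrays at each time, and pituitary at 4, 8, 24, 48 and 72 h, with 3 control and 3 EE arrays. The p-values then measure the spread between arrays, which may be technical. Whole organs were measured, so fewer cells of a type and less RNA per cell cannot be told apart in any value below.

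The uterus arrays held between 9338 and 10677 cells with a value, and the pituitary arrays between 9318 and 10135. The markers of each tissue were checked against the labels. Acta2, smooth muscle actin, read 1714 to 3057 on the 70 uterus arrays. Prl and Gh1, the hormones of lactotrophs and somatotrophs, had values on all 30 pituitary arrays and on no uterus array. Pomc, the hormone precursor of corticotrophs, had a value on 1 of the 30 pituitary arrays. Intensity is the deposited linear signal of a probe set, and its level is not compared between genes, since probe sets differ in how strongly they bind. A difference is EE minus control on the scale log2(intensity + 30.4), with its standard error (SE). Its fold is also on that scale, which understates the change of a gene with a low signal. The threshold for passing was an adjusted p of 0.05 (limma, Benjamini-Hochberg over all genes tested). Where groups are said not to overlap, this describes the arrays, and its share over all genes was not counted.

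In the uterus Klf4 and Cebpb were higher with EE at all 7 times, and Myc was higher at 2, 4, 8 and 28 h and lower at 24 h. Klf6 was lower at 2, 8, 24 and 28 h, and Klf10 was lower at 24 h alone among the 7 times. Of 35 member tests in the uterus, 24 passed. At 2 h, 4 of the 5 members passed, against 6.39% of 7211 genes tested. At 4 h, 3 members passed, against 58.1% of all genes, and at 8 h, 4 members passed, against 64.4%. All 5 passed at 24 h, where 59.3% of all genes did, and 4 passed at 28 h, against 62.9%. At 48 and at 72 h only Klf4 and Cebpb of the 5 passed, and the shares of all genes were 57.1% and 60.2%. From 4 h on most genes tested passed, so the members' counts are read beside the size of their differences. By size, Cebpb was rank 8 of 7211 from the largest rise at 2 h and rank 6 of 6890 at 4 h. Klf4 was rank 12 at 2 h and rank 21 at 4 h, and Myc was rank 32 and rank 93. At 24 h, where all 5 passed, Klf4 was rank 339 of 7014 and Cebpb rank 1283 from the largest rise, and Klf10, Klf6 and Myc were rank 1484, 1843 and 1872 from the largest fall. Apart from Klf4, the 24 h differences lay between -0.32 and 0.29, near the median size over all genes tested, 0.24. Klf6 was rank 40 of 7211 from the largest fall at 2 h, rank 1225 of 6893 at 8 h and rank 1847 of 6920 at 28 h. The late rises of Klf4 were rank 179 of 6961 at 48 h and rank 72 of 6762 at 72 h, and those of Cebpb rank 686 and rank 395.

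**Figure D1:**
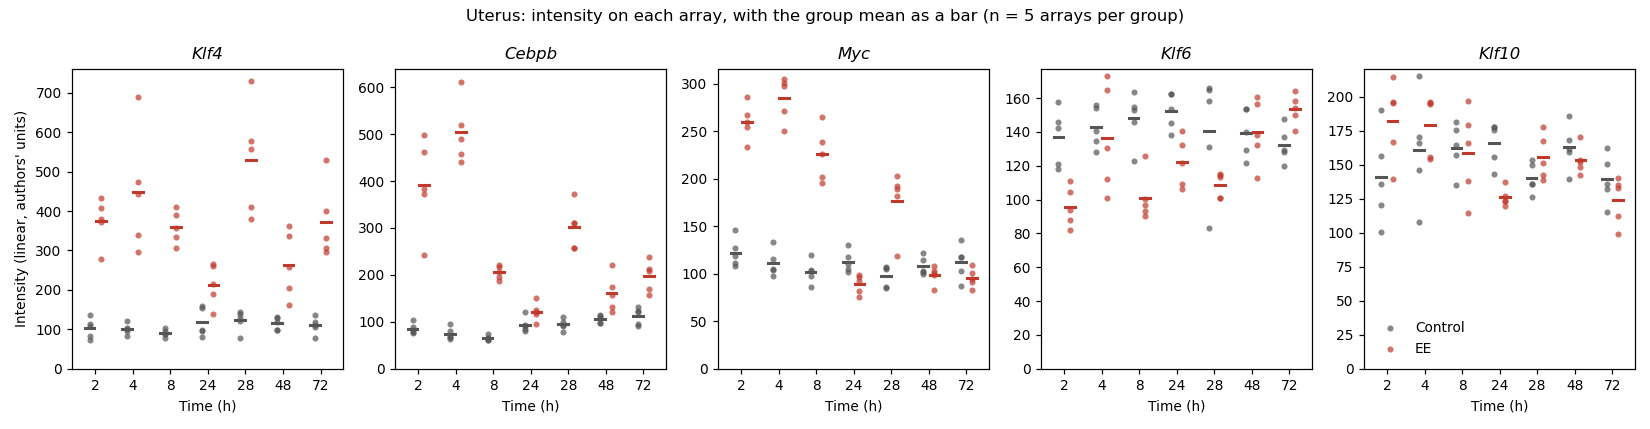
Intensity of the 5 members on each uterus array (points; y axis, linear intensity from 0) by time in hours (x axis, evenly spaced), control in grey and EE in red, with a bar at the mean of the 5 arrays of a group. The EE points of Klf4 stand above all control points of the same time except at 24 h, and the EE points of Myc stand above control at 2, 4, 8 and 28 h and below it at 24 h.

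Klf4 rose early, was lower again at 24 h and was high again at 28 h. At 2 h its intensity was 73.7, 84.2, 109, 113 and 135 on the control arrays and 279, 372, 379, 408 and 432 on the EE arrays. The lowest EE array at 2 h was above the highest control array, and the difference was 1.61 ± 0.18 (SE), 3.05-fold (adjusted p = 1.01e-10). At 4 h the arrays read 84.2, 95.9, 102, 103 and 120.4 on the control arrays and 295, 339, 442, 473 and 689 on the EE arrays. This gap was 1.81 ± 0.18, 3.51-fold, and 1 EE array stood well above the other 4. The 8 h arrays were tighter, at 77.9, 87.4, 88.4, 95.3 and 104 on the control arrays and 307, 335, 357, 389 and 411 on the EE arrays. The 8 h difference was 1.69 ± 0.18, 3.22-fold, again without overlap.

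At 24 h Klf4 read 79.8, 96.7, 97.1, 155 and 159 on the control arrays and 138, 189, 214, 259.9 and 265 on the EE arrays. The groups overlapped there, because the lowest EE array lay under 2 control arrays, and the difference of 0.72 ± 0.18 still passed (adjusted p = 3.24e-04). At 28 h it read 79.1, 122, 129, 139 and 144 on the control arrays and 380.2, 410.03, 557, 576 and 728 on the EE arrays. The 28 h difference of 1.86 ± 0.18, 3.63-fold, was the largest of the 7 for Klf4. At 48 h the arrays read 97.04, 98.9, 119, 128 and 132 on the control arrays and 161, 204, 259, 336 and 362 on the EE arrays, and the groups did not overlap. At 72 h they read 77.9, 106, 112, 119 and 137 on the control arrays and 295, 305, 333, 401 and 529.7 on the EE arrays. The differences were 0.98 ± 0.18 at 48 h and 1.5 ± 0.18 at 72 h, and both passed. Among EE groups the mean fell in the order 28, 4, 2, 72, 8, 48 and 24 h, and each group overlapped the next in that order.

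Klf6 went the other way and by less. On its main probe set the 2 h arrays read 118, 121, 142, 146 and 158 on the control arrays and 81.999, 87.9, 94.1, 104 and 111 on the EE arrays. All 5 EE arrays were below all 5 control arrays, with a difference of -0.41 ± 0.10 (adjusted p = 0.00468). The other probe set read 75.1, 75.99, 83.99, 88.1 and 104 in controls and 52.6, 53.8, 55.4, 72.1 and 77.4 with EE at 2 h. Its difference of -0.32 ± 0.13 had the same sign without passing (adjusted p = 0.129). At 4 h the main probe set showed -0.07 ± 0.10 and did not pass.

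At 8 h Klf6 read 123, 146, 153, 155 and 163 on the control arrays and 90.1, 93.3, 96.8, 100.1 and 126 on the EE arrays. Of the EE arrays, 4 were below every control array and the fifth was above the lowest control array, and the difference was -0.44 ± 0.10 (adjusted p = 1.00e-04). The other probe set gave -0.54 ± 0.13 at 8 h and passed, with 89.9, 108, 111, 114 and 115 in controls and 52.2, 59.7, 67.3, 68.9 and 76.3 with EE. At 24 h the main probe set read 138, 145, 154, 162 and 162 on the control arrays and 107, 109, 121, 132 and 140.4 on the EE arrays. At 28 h it read 83.4, 131, 158, 165 and 166 on the control arrays and 101, 101, 113, 114 and 115 on the EE arrays. The groups overlapped at both times, at 28 h through the 1 control array that was lowest. At 24 h the differences were -0.27 ± 0.10 and -0.30 ± 0.13 on the main and the other probe set, and at 28 h -0.27 ± 0.10 and -0.31 ± 0.13. All 4 passed, but with arrays centred on their medians the main probe set had adjusted p = 0.0775 at 24 h and 0.0505 at 28 h, with quantile normalization 0.0652 at 24 h, and in a fit of only the 2 groups compared 0.0783 at 28 h. It also did not pass at 24 h without the EE array of number 43 or 47 (adjusted p = 0.0595 and 0.0519), nor at 28 h without the control array of number 49, 52 or 53 (adjusted p = 0.0691, 0.0721 and 0.0563). At 48 h the main difference was 0.00 ± 0.10, with a 95% interval of -0.19 to 0.20, and at 72 h it was 0.18 ± 0.10, and neither passed. In a fit of only the 2 groups compared the 72 h difference passed as higher with EE (adjusted p = 0.041).

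The window of 250 bases before the start of Klf6 (GRCr8 chr17:69458479-69458728, minus strand, from RefSeq) is shown because Klf6 was the only member with an E-box, the motif that Myc and Max bind, among the 3 members for which a window was given. Capitals mark the E-box CACGTG, and the run is read 5′ to 3′ toward the gene.
Klf6: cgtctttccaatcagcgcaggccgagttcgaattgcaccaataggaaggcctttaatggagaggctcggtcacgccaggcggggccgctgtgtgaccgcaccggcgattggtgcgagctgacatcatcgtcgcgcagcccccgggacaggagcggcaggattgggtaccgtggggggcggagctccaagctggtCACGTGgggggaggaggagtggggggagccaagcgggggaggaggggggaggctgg
The E-box lies 56 to 51 bases before the start. It occurred in 5.79% of 27457 promoter windows of this length, searched on both strands. The same 250 bases also held 1 GC box, GGGCGG, present in 32.4% of windows, and 1 serum response element, present in 1.5%. These are matches of letters and not measured binding sites.

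Klf10 passed at the fewest times of the 5 members. Its 2 h arrays read 100.5, 120.4, 136, 156 and 190.1 on the control arrays and 139, 167, 195, 196 and 214 on the EE arrays, the groups overlapped, and the difference of 0.33 ± 0.11 did not pass (adjusted p = 0.0585). With arrays centred on their medians, or quantile normalized, the 2 h difference passed, at adjusted p = 0.0411 and 0.0419, as it did without the control array of number 2 or 6 or the EE array of number 8 (adjusted p = 0.0428, 0.0121 and 0.0181). At 24 h Klf10 read 143, 156, 175, 177 and 178 on the control arrays and 119.7, 123, 123, 127 and 138 on the EE arrays. All EE arrays were below all control arrays there, and the difference of -0.32 ± 0.11, 1.25-fold lower, passed (adjusted p = 0.00941). At the other 5 times the differences lay between -0.14 at 72 h and 0.15 at 4 h, and none passed. The lowest and highest intensities over all 70 uterus arrays were 99.3 and 215.

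Cebpb had the largest rise of the 5 members, at 4 h. At 2 h it read 76.3, 77.4, 81.6, 89.2 and 103 on the control arrays and 242, 373, 384, 462 and 499 on the EE arrays. The groups were far apart, by 1.83 ± 0.12, 3.57-fold (adjusted p = 6.65e-20). At 4 h it read 63.7, 66.8, 68.6, 80.9 and 95.4 on the control arrays and 441, 457, 489, 518 and 612 on the EE arrays. That difference was 2.34 ± 0.12, 5.06-fold (adjusted p = 9.26e-26). The 8 h arrays read 60.5, 61.3, 65.2, 66.5 and 73.7 on the control arrays and 187, 196, 206, 217 and 222 on the EE arrays. By then the EE arrays had come down to a narrow band, with a difference of 1.3 ± 0.12, 2.46-fold.

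At 24 h Cebpb was close to control, at 80.2, 83.8, 91.7, 93.99 and 121 on the control arrays and 94.6, 117, 121, 126 and 152 on the EE arrays. The groups overlapped, and the difference of 0.29 ± 0.12 passed narrowly (adjusted p = 0.0316). It no longer passed without the control array of number 41 or 42 (adjusted p = 0.0723 and 0.0852), without the EE array of number 43 or 45 (adjusted p = 0.0558 and 0.122) or with an offset of 100 (adjusted p = 0.0619). At 28 h it read 78.4, 91.8, 92.2, 100.01 and 110.3 on the control arrays and 257, 258, 310.2, 311 and 372 on the EE arrays, with no overlap and a difference of 1.4 ± 0.12, 2.64-fold. At 48 h it read 97.1, 98.2, 108, 112 and 116 on the control arrays and 121, 131, 157, 174 and 222 on the EE arrays. At 72 h it read 90.1, 96.2, 121, 122 and 131 on the control arrays and 157, 170.5, 209, 213 and 238 on the EE arrays. Both late differences, 0.46 ± 0.12 and 0.67 ± 0.12, passed without overlap. Among EE groups the mean fell in the order 4, 2, 28, 8, 72, 48 and 24 h, and only the 28 and 8 h groups of neighbours in that order did not overlap.

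The 250 bases before the start of Cebpb (GRCr8 chr3:176816755-176817004, plus strand, from RefSeq) are shown because they held 3 matches to CGTCA, the core of the cyclic AMP response element, counted on both strands. Capitals mark these matches, which read TGACG where the match is on the other strand.
Cebpb: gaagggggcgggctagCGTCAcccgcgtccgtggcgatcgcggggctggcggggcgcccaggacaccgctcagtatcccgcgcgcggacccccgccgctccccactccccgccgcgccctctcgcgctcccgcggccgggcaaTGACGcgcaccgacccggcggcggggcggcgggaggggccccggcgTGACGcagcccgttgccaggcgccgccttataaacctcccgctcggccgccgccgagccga
At least 1 such match occurred in 19% of the 27457 windows. They lie 234 to 230, 107 to 103 and 61 to 57 bases before the start. The first overlaps the window's 1 Klf box, CACCC, which 49.4% of windows held. The window also held 2 GC boxes and was 80% G or C, against a median of 52% over all windows. No AP-1 site (TGANTCA), C/EBP site (TTNNGNAA), E-box, estrogen response element or serum response element was found in its letters. Of these motifs the window given for Klf4 held 1 C/EBP site, present in 36.8% of windows, and that window lies inside the annotated gene. Windows for Klf10 and Myc were not used here. None of this says whether a factor binds.

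Epithelial and myeloid marker genes also changed, at the second rise of Klf4 and Cebpb at 28 h as well as at the late ones. They also changed at 24 h, where both members had their lowest mean with EE. Of the 10 epithelial markers tested in the uterus, such as Krt8, 0 passed at 2 h, and 2 rose and 2 fell at 4 h. At 8 h 5 rose and 2 fell, at 28 h 6 rose and 2 fell, at 48 h 7 rose and 2 fell, and at 72 h 7 rose and 1 fell, while at 24 h 5 of 9 rose and 3 fell. The shares of all genes that passed at these times, 6.39% at 2 h and 57.1% to 64.4% later, stand beside these and the next marker counts. The summed intensity over 7 epithelial genes was 2017 to 2390 in controls and 2094 to 2356 with EE at 2 h, 1990 to 2312 and 3131 to 3984 at 28 h, and 1823 to 2276 and 4841 to 7179 at 72 h. At 24 h this sum was 2084 to 2479 in controls and 3069 to 4622 with EE. Of the myeloid markers none of 5 passed at 2 h, 1 rose and 1 fell at 4 h and at 8 h, 5 of 6 rose at 24 and at 28 h, and all 5 tested rose at 48 and at 72 h. Their sum at 24 h was 891 to 1109 in controls and 929 to 2548 with EE, with overlap. At 28 h it was 878 to 1111 in controls and 1239 to 2187 with EE. Their sum over 4 genes at 72 h was 868 to 1176 in controls and 3026 to 5041 with EE, with Itgam and Prg2 blank on all arrays of those groups. At 2 h the myeloid sum was 686 to 952 in controls and 657 to 774 with EE. Of 5 endothelial markers, 4 fell at 24, 28, 48 and 72 h, with a sum at 72 h of 822 to 982 in controls and 396 to 558 with EE. At 4 h 2 of them rose and 3 fell, and at 8 h 2 rose and 2 fell. Of 10 stromal markers, 7 fell at 4 h and 7 at 8 h, with a sum at 4 h of 17950 to 19440 in controls and 13790 to 15900 with EE. At 24, 28, 48 and 72 h 3, 6, 4 and 5 of them fell, and 1 rose at 72 h. Of 10 smooth muscle markers, 1 rose and 1 fell at 4 h, and 1 rose and 4 fell at 8 h. At 24 h 3 rose and 4 fell, and at 28 h 4 rose and 3 fell. At 48 h 4 rose and 1 fell, and at 72 h 5 rose and 1 fell. At 2 h, where 6.39% of all genes passed, no epithelial, myeloid, stromal, endothelial or smooth muscle marker tested did. The part of these markers in the members' differences was not tested at any time. The difference between the 3′ and 5′ control probe sets of Actb, a measure of RNA integrity on the log2 scale, averaged 0.441 to 0.669 over the control groups of the uterus and 0.198 to 0.426 over the EE groups. On single arrays it lay between 0.0665 and 1.09 in the uterus and between 1.23 and 1.86 in the pituitary, without overlap. Its part in the results, those between tissues included, was not tested.

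Myc rose early and did not pass at the last 2 times. At 2 h it read 108, 111, 119, 127 and 146 on the control arrays and 233, 254, 259.6, 266 and 285 on the EE arrays. The groups did not overlap and differed by 0.93 ± 0.09, 1.91-fold (adjusted p = 1.19e-12). At 4 h Myc read 97.1, 104, 105, 116 and 134 on the control arrays and 250.1, 272, 298, 300.4 and 304 on the EE arrays. The 4 h difference of 1.16 ± 0.09, 2.23-fold, was its largest. At 8 h it read 86.3, 97.7, 102, 104 and 119 on the control arrays and 196, 202, 226, 239 and 265 on the EE arrays, with a difference of 0.95 ± 0.09 and no overlap.

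At 24 h Myc was below control in every array, at 102, 105, 109.8, 118 and 129.7 on the control arrays and 75.8, 81.6, 92.7, 96.2 and 98.98 on the EE arrays. The difference was -0.26 ± 0.09, 1.20-fold lower (adjusted p = 0.00963). At 28 h it was above control again, at 85.1, 86.3, 105, 106 and 107 on the control arrays and 119, 181, 189, 192 and 203 on the EE arrays. One EE array stood at 119 below the other 4, which lay between 181 and 203, and all 5 were above every control array. The 28 h difference was 0.68 ± 0.09, and 0.79 without that array. At 48 h it read 99.9, 101, 103, 114 and 122 on the control arrays and 82.4, 98.1, 100.2, 103 and 108 on the EE arrays, and at 72 h 86.8, 103, 118, 118 and 135 on the control arrays and 82.9, 91.6, 94.1, 101 and 109 on the EE arrays. The groups overlapped at both times, and the differences of -0.11 ± 0.09 and -0.17 ± 0.09 did not pass (adjusted p = 0.32 and 0.0931). At 72 h it passed without the control array of number 78 (-0.24, adjusted p = 0.0223).

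Genes that Myc is known to induce, many of them of ribosome assembly and metabolism, mostly did not pass at 2 h and were mostly higher at 4 and 8 h. The list held 28 such genes, of which 24 were on the array. At 2 h, 10 of 24 tested rose, 0 fell and 14 did not pass, with a median difference of 0.18, against -0.02 over all 7211 genes tested, of which 290 rose and 171 fell. At 4 h, 21 of 23 rose and none fell, with a median of 0.92, where 1629 of all 6890 genes rose and 2376 fell. At 8 h, 23 of 24 rose and 1, Ccnd2, fell, with a median of 1.27, when Myc itself showed 0.95, and of all 6893 genes 1989 rose and 2450 fell. At 24 h, where Myc was below control, 14 of 23 still rose, 2 fell (Ccnd2 and Nolc1) and the median was 0.36. At 28 h, 19 of 24 rose and Ccnd2 fell, with a median of 0.72. At 48 h, 8 of 23 rose, 4 fell and 11 did not pass, with a median of 0.01. By 72 h, 3 of 23 rose, 11 fell and the median was -0.19. The median over all genes tested lay between -0.08 and -0.02 at the 7 times. Of all genes tested, 59.3%, 62.9%, 57.1% and 60.2% passed at 24, 28, 48 and 72 h in either direction. At 24 h 1748 of 7014 rose and 2414 fell, and at 72 h 1576 of 6762 rose and 2493 fell. At 48 and 72 h the share of the list that passed was near that of all genes.

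Single genes of the list show the size of the change. Nop56, a core protein of the particles that guide methylation of ribosomal RNA, differed by 1.85 ± 0.11 at 8 h and by -0.42 ± 0.11 at 72 h. Its partner Nop58 differed by 1.58 ± 0.08 at 4 h (adjusted p = 6.42e-26). Eif4a1, a helicase of translation initiation, differed by 1.41 ± 0.07 at 8 h and by 0.53 ± 0.07 at 72 h, and it rose at all 7 times. Hspe1, a mitochondrial chaperonin, differed by 1.46 ± 0.08 at 8 h. The list was chosen with earlier results of these data known, and its count is no independent evidence.

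**Figure D2:**
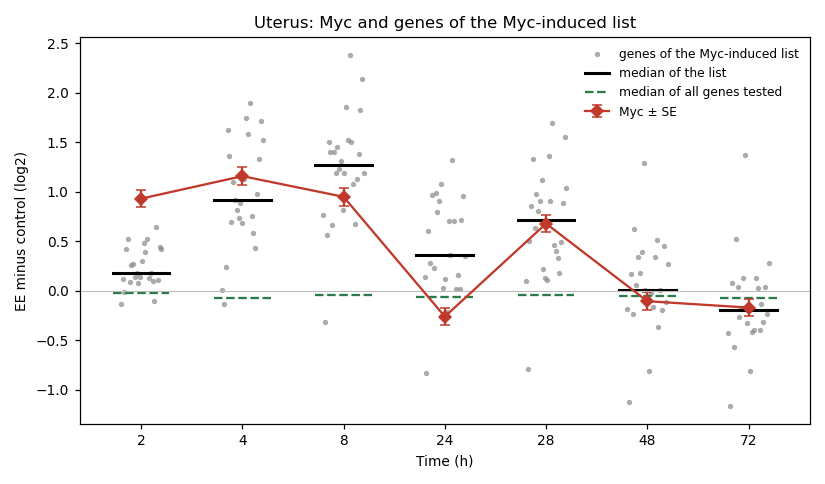
Difference between EE and control in the uterus (y axis, log2) by time in hours (x axis, evenly spaced) for Myc (red diamonds, ± SE) and for each gene of the Myc-induced list (grey points), with the list's median (black bar) and the median of all genes tested (green dashes). The list's median is highest at 8 h, at 1.27, and Myc is highest at 4 h, at 1.16 and is below 0 at 24 h.

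Partners and rivals of Myc changed in both directions. In the network of Max, 14 of 18 listed genes were on the array. At 2 h, 0 of 9 tested passed, against 6.39% of all genes. At 4 h, 3 rose and 2 fell, and at 8 h, 4 rose and 3 fell, against 58.1% and 64.4% of all genes that passed, so that 5 and 7 of 9 are near those shares. Mxi1, which competes with Myc for Max, fell by 1.95 ± 0.11 at 8 h (adjusted p = 1.84e-23), by 1.53 ± 0.11 at 4 h and by 1.53 ± 0.11 at 28 h. Mxd4, of the same group, fell by 0.90 ± 0.09 at 4 h and rose by 0.47 ± 0.09 at 72 h. Ruvbl1, a helicase that binds Myc, rose by 0.82 ± 0.08 at 8 h and fell by 0.66 ± 0.08 at 72 h. Mlx, which pairs with a related set of factors, rose by 0.73 ± 0.08 at 8 h. Max itself rose by 0.41 ± 0.11 at 4 h and 0.34 ± 0.11 at 8 h. At 24, 28, 48 and 72 h, 2 to 3 of the 9 or 10 genes tested rose and 3 to 5 fell, against 57.1% to 62.9% of all genes that passed.

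The wider families of the other members changed in both directions. Of 8 other Klf and Sp genes tested in the uterus, 2 rose and 1 fell at 2 h, where 6.39% of all genes passed. At 48 h 0 rose and 7 fell, where 57.1% of all genes passed, with 1683 of 6961 higher and 2294 lower. Klf2, a factor of endothelium and quiescent cells, rose by 1.0 ± 0.11 at 2 h and fell by 0.75 ± 0.11 at 48 h. Klf16 was the other gene that rose at 2 h, by 0.49 ± 0.08. Klf15, known from metabolic control, fell at all 7 times, from -0.32 ± 0.08 at 2 h to -1.46 ± 0.08 at 28 h. Klf9, a partner of the progesterone receptor in the uterus, differed by -0.07 ± 0.08 at 2 h without passing and fell by 1.31 ± 0.08 at 8 h. Sp1, the general GC box factor, fell by 0.78 ± 0.07 at 72 h. The list's median went from 0.02 at 2 h to -0.53 at 48 h, against -0.02 and -0.05 over all genes tested.

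Among the genes listed as C/EBP relatives and partners, 4 of 9 on the array could be tested. At 4 h and at 8 h 3 of those 4 rose, against 58.1% and 64.4% of all genes that passed in either direction. The fourth, Ddit3, which blocks DNA binding by C/EBP partners, fell by 0.28 ± 0.11 at 4 h (adjusted p = 0.0272) and by 0.71 ± 0.11 at 24 h. With so few genes these 4 and 8 h counts are near the background. At 2 h 2 of the 4 rose and 0 fell, where 6.39% of all genes passed. At 24 h 0 rose and 2 fell, Ddit3 and Cebpz, and at 28 h all 3 tested rose. At 48 and at 72 h 0 rose and 2 of 3 fell, Atf4 and Cebpz. The shares of all genes that passed at these times were 57.1% to 62.9%. Atf4, the stress factor that can pair with Cebpb, rose by 1.23 ± 0.06 at 4 h. Cebpz, which shares the C/EBP name, rose by 0.93 ± 0.08 at 4 h and fell by 0.78 ± 0.08 at 72 h. Cebpg rose by 0.47 ± 0.07 at 8 h. Early genes and members of transforming growth factor beta signalling, the pathway Klf10 is known from, changed both ways, with 4 of 14 higher and 7 lower at 4 h, where 58.1% of all genes passed and more of them were lower (2376) than higher (1629). Ccn2, a matrix factor and textbook target of the pathway, fell by 1.69 ± 0.14 at 28 h, and the ligand Tgfb3 by 1.1 ± 0.08. The repressor Tgif1 fell by 0.94 ± 0.09 at 8 h and the signal carrier Smad3 by 0.83 ± 0.08 at 24 h. Junb rose by 1.11 ± 0.15 at 2 h. Of the 14 genes of this pathway tested, 2 rose and 1 fell at 2 h, where 6.39% of all genes passed.

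The effect of EE changed over the uterus time course for each member. In an F test over the 7 times, all 5 passed, against 81.7% of 6319 genes tested. Between neighbouring times the changes were tested directly, and 11 of 30 passed. From 2 to 4 h, 1 of 5 passed (all genes, 33%), namely Cebpb, whose effect grew by 0.50 ± 0.17. This no longer passed without the EE array of number 10 at 2 h (0.36, adjusted p = 0.0763). From 4 to 8 h, again only Cebpb passed (all genes, 19.6%), with -1.04 ± 0.17. On the other Klf6 probe set the change from 4 to 8 h, -0.59 ± 0.18, passed as well, while the main one gave -0.37 ± 0.14 (adjusted p = 0.0553).

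The drop to 24 h and the return at 28 h were seen in the same 3 members. From 8 to 24 h, Klf4, Cebpb and Myc passed (all genes, 46.3%), with changes of -0.96 ± 0.25, -1.01 ± 0.17 and -1.21 ± 0.13. From 24 to 28 h, Klf4, Cebpb and Myc passed, where 8.29% of 6789 genes did, with 1.13 ± 0.25, 1.11 ± 0.17 and 0.94 ± 0.13. Klf10 had 0.44 ± 0.16 over that step (adjusted p = 0.0634). From 28 to 48 h the same 3 passed (all genes, 26.8%), with changes of -0.88 ± 0.25, -0.94 ± 0.17 and -0.78 ± 0.13. From 48 to 72 h no member passed, and 0.509% of genes did. The step in Klf4 was 0.53 ± 0.25 (adjusted p = 0.347). The sampling times are unequal steps, and the labels do not say whether EE was given again before 28 h.

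The rise at 28 h was smaller than that at 4 h in Cebpb and Myc. The effect at 28 h minus that at 4 h was -0.94 ± 0.17 in Cebpb and -0.48 ± 0.13 in Myc, and these 2 of 5 passed (all genes, 36%). For Klf4 it was 0.05 ± 0.25, with a 95% interval of -0.44 to 0.53, and it did not pass.

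**Figure D3:**
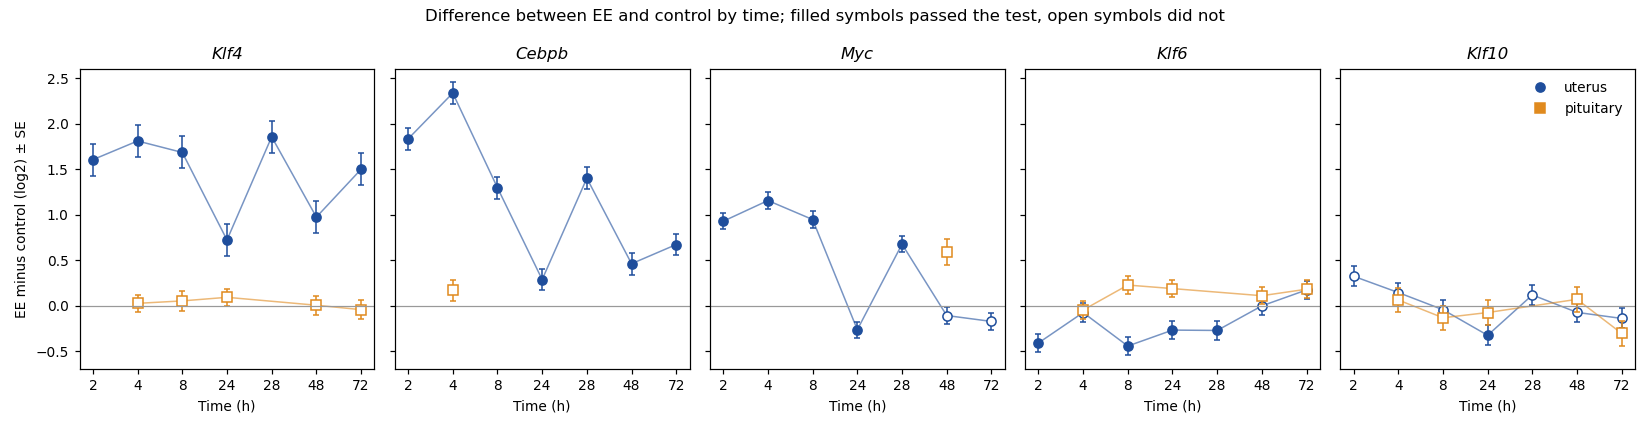
Difference between EE and control (y axis, log2, ± SE) by time in hours (x axis, evenly spaced) for each member, in uterus (blue circles, 5 against 5 arrays) and pituitary (orange squares, up to 3 against 3 arrays), with filled symbols where the test passed. Klf4, Cebpb and Myc share a low point at 24 h and a second high point at 28 h in uterus, and no pituitary symbol is filled.

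Genes with the most similar pattern were found by the correlation of their 14 uterus group means with those of each member, over 1243 genes whose means spanned at least 1 log2 unit. This is a description over groups that share arrays and treatment. Nearest to Klf4 were Inhbb (r = 0.986), an activin and inhibin subunit, Hsd11b2 (r = 0.971), which inactivates glucocorticoids, and Nmur2 (r = 0.947), a neuromedin receptor. Inhbb differed by 3.44 ± 0.13 at 4 h, 1.15 ± 0.12 at 24 h and 2.8 ± 0.13 at 28 h. Nearest to Cebpb were Fos (r = 0.976), a part of the AP-1 factor, Rasd1 (r = 0.966) and Gadd45g (r = 0.961). Fos differed by 2.24 ± 0.19 at 2 h, 0.17 ± 0.22 at 24 h and 1.58 ± 0.22 at 28 h. Nearest to Myc were Ier2 (r = 0.97), an immediate-early gene, Midn (r = 0.967) and Sgk1 (r = 0.958), a kinase induced by serum and steroids. Ier2 fell by 0.28 at 24 h and rose by 0.41 ± 0.10 at 28 h. Klf6 and Klf10 had looser neighbours. Nearest to Klf6 were Ctsa (r = 0.761), a lysosomal protease, Tmem176b (r = 0.753) and Itgb5 (r = 0.751), an integrin subunit. Nearest to Klf10 were Trio (r = 0.84), Wsb1 (r = 0.793) and Errfi1 (r = 0.79), an inhibitor of the epidermal growth factor receptor. The means of Klf6 and Klf10 themselves spanned 0.55 and 0.46 log2 units. Between members, group means correlated at 0.916 for Klf4 and Cebpb, 0.826 for Cebpb and Myc and -0.686 for Klf6 and Myc.

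Arrays of one group also varied together in some members. Deviations from the group means over the 70 uterus arrays were compared for 10 pairs of members, with 100000 permutations within groups. Klf4 and Cebpb correlated at r = 0.509 (permutation p = 0.00015, adjusted 0.0015) and rho = 0.498 (p = 0.00022, adjusted 0.0022), and r was 0.495 without the 2 arrays farthest from the median of Klf4. Klf4 and Klf6 had r = 0.447 (permutation p = 0.00106, adjusted 0.0053) and rho = 0.404 (p = 0.00234, adjusted 0.0086), and r was 0.415 without such arrays. Klf6 and Cebpb had r = 0.304 (permutation p = 0.0127, adjusted 0.0424) and rho = 0.380 (p = 0.00258, adjusted 0.0086), and r was 0.282 without such arrays. The other 7 pairs had r between -0.0394 and 0.213, with adjusted permutation p of 0.237 or higher. Over 5498 other genes the same correlation with Klf4 had a median of -0.0293, and 90% of them lay between -0.353 and 0.345. With Klf6 90% lay between -0.324 and 0.357, and with Cebpb between -0.302 and 0.295. The value of Klf6 and Cebpb, 0.304, thus lay inside the range of other genes with Klf6 and just past that with Cebpb, while the other 2 pairs named lay past both of their ranges. Within groups Klf4 and Klf6 deviated in the same direction, while their differences from control were opposite in sign at 2, 8, 24 and 28 h.

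Control arrays served to show the level without EE. Over the 7 control groups of the uterus, 1 of 5 members passed an F test for a difference between times, against 32.8% of 6907 genes. This was Cebpb (adjusted p = 0.00102), whose control mean went from 65.4 ± 5.26 (SD, n = 5) at 8 h to 112 ± 17.7 (SD, n = 5) at 72 h. Control means of Klf4 lay between 90.7 at 8 h and 122 at 28 h, and those of Myc between 98 at 28 h and 122 at 2 h. In pituitary controls 0 of 3 members tested passed, and 1.6% of 6515 genes did (limma). At an unadjusted p under 0.05 none of the 3 passed either.

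In the pituitary no member passed at any time, but Myc had values with EE where controls were blank. Of member tests there, 17 could be made and 0 passed. The members tested numbered 4, 3, 3, 4 and 3 at 4, 8, 24, 48 and 72 h, where 1.49%, 3.59%, 0.103%, 0.294% and 2.66% of all genes passed (limma). At an unadjusted p under 0.05, 3 of the 17 did, namely Klf6 at 8 h, Klf10 at 72 h and Myc at 48 h. In an F test over the 5 times 0 of the 3 members tested passed, and 1.11% of all genes passed it.

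Myc was blank on 10 of 15 control arrays of the pituitary and had a value on all 15 EE arrays. At 4 h all 3 control arrays were blank, and the EE arrays read 58.4, 66.7 and 77.1. At 8 h 1 control array read 18.3, and the EE arrays read 51.5, 61.04 and 74.2. At 24 h 1 control array read 17.8, and the EE arrays read 17.6, 31.7 and 37.4, so that these overlapped. At 72 h 1 control array read 19.3, and the EE arrays read 60.03, 67.3 and 71.9. All 5 control values were below 30.4, the level under which 10% of all values lie, and 14 of the 15 EE values were above it. Only 48 h could be tested, with 16.4 and 16.5 in controls and 33.6, 35.6 and 52.9 with EE. The difference of 0.59 ± 0.14 ranked 14 of 6804 from the largest rise and did not pass (adjusted p = 0.0925). Where blanks were filled with the 10th percentile of their array, Myc differed by 0.60 at 4 h (adjusted p = 0.0583), 0.68 at 8 h (0.0184), 0.00 at 24 h (0.999), 0.43 at 48 h (0.315) and 0.70 at 72 h (0.0138). Of the 3 control arrays, 0 had a measured value at 4 h, 1 at 8, 24 and 72 h and 2 at 48 h. The rest were fills, so 0.00 at 24 h is not a measured absence of a difference. At 48 h the fill of 1 control lowered the difference from 0.59 to 0.43, so this fill lay above the measured controls. Why a cell is blank is not stated by the labels or the table. Of 8115 genes with any pituitary value, 2 had a value on all 15 EE arrays and on 5 or fewer control arrays. The limit of 5 was Myc's own count, so Myc is 1 of the 2 by construction and the count is no independent evidence. The second, named after its values were seen, was S100g, the calcium-binding protein calbindin-D9k, with 0 of 15 control arrays. At 4 h, 15 genes had a value on all EE arrays and no control array, Myc among them, and 12 the reverse.

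**Figure D4:**
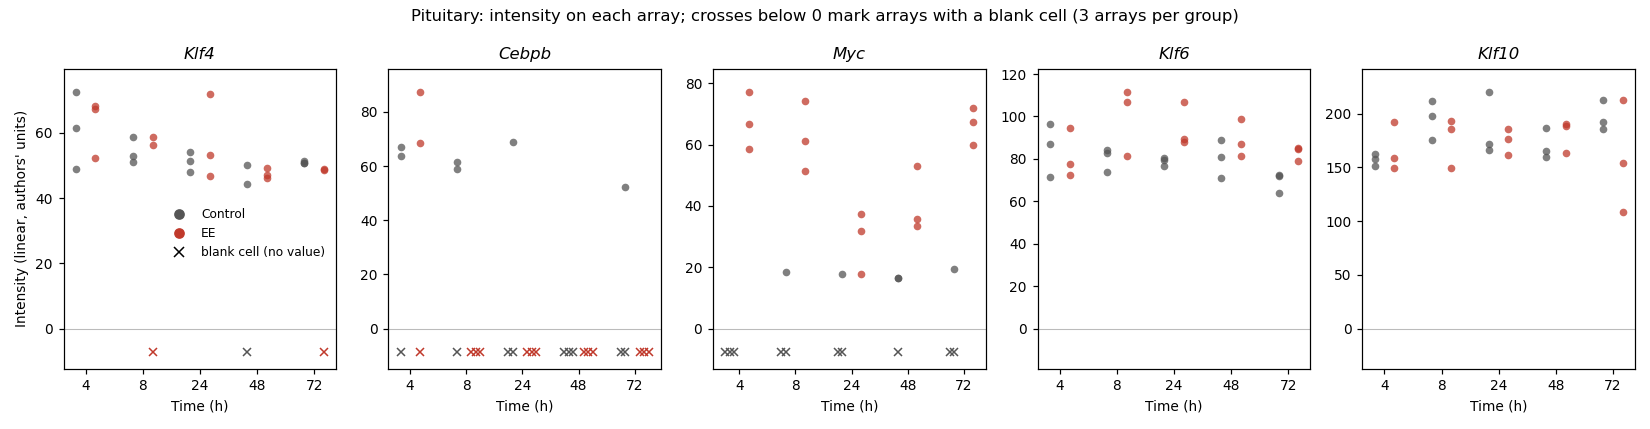
Intensity of the 5 members on each pituitary array (y axis, linear intensity) by time in hours (x axis, evenly spaced), control in grey and EE in red, with crosses below 0 for arrays with a blank cell. Myc has red points on all 15 EE arrays and grey points on 5 of 15 control arrays, all at 16.4 to 19.3, and Cebpb is blank on 22 of 30 arrays.

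Few genes of the Myc-induced list passed in the pituitary. At 4 h, 5 of 23 tested rose, where 1.49% of all genes passed, with a list median of 0.23 against -0.01 over all genes. These were Nop56 (1.07 ± 0.11), Tfrc (0.60 ± 0.12), the transferrin receptor, Fbl (0.49 ± 0.09), Eif4a1 (0.41 ± 0.10) and Nolc1 (0.36 ± 0.09). At 8 h, where 3.59% of all genes passed, 3 of 22 rose, namely Nop56 (0.85 ± 0.11), Eif4a1 (0.48 ± 0.10) and Hspd1 (0.27 ± 0.07). At 24 and 48 h none of 23 passed, and at 72 h 1 did, Nop56 (0.43 ± 0.11), against 2.66% of all genes. Of the Max network, Mycn, a close relative of Myc, was the only gene that passed, and it rose at 4, 8 and 72 h by 0.78 ± 0.12, 0.53 ± 0.12 and 0.60 ± 0.12. No gene of the other Klf and Sp list or of the C/EBP list passed in the pituitary, and of the transforming growth factor beta list Smad3 rose at 4 h, by 0.70 ± 0.11.

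Of the other members none passed there, and Cebpb was blank on most arrays. Klf4 had a value on 27 of 30 pituitary arrays, from 44.3 to 72.4, and its differences lay between -0.04 and 0.09. Klf6 read 64 to 96.6 in controls and 72.4 to 111 with EE, and its differences lay between -0.04 at 4 h and 0.23 at 8 h (adjusted p = 0.17). At 24 and 72 h all 3 EE arrays of Klf6 were above all 3 control arrays, which with so few arrays also happens often by chance. How many of all genes did so was not counted. Neither Klf6 difference passed at those times (adjusted p = 0.879 and 0.406), where 0.103% and 2.66% of all genes passed that test. The 8 h difference passed without the EE array of number 33 (0.34, adjusted p = 0.0335). Klf10 read 151 to 219.9 in controls and 108 to 213 with EE, and at 72 h it differed by -0.30 ± 0.13 (adjusted p = 0.3). That difference was -0.50 and passed without the EE array of number 82 (adjusted p = 0.0312). Cebpb had a value on 6 of 15 control arrays, from 52.4 to 68.8, and on 2 of 15 EE arrays, 68.6 and 87.3, both at 4 h. It was tested at 4 h alone, with 0.17 ± 0.12 (adjusted p = 0.747).

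The difference between tissues was tested itself. At 4 h the effect of EE in uterus minus that in pituitary passed in 2 of 4 members, against 33.8% of all genes, for Klf4 with 1.78 ± 0.26 and Cebpb with 2.17 ± 0.22. At 8 h, 2 of 3 passed (all genes, 48.1%), Klf4 with 1.63 ± 0.28 and Klf6 with -0.67 ± 0.15. At 24 h the same 2 passed of 3 (all genes, 40.1%), with 0.63 ± 0.26 and -0.46 ± 0.15. The 24 h value of Klf4 (adjusted p = 0.0437) was close to the threshold. It no longer passed when any 1 of 11 of the 16 arrays was left out (adjusted p = 0.0546 to 0.117), with an offset of 0 or 100 (0.0508 and 0.0562) with blanks filled (0.0596) or with the shared title number as a block on all genes tested (0.0501). For Klf6 the 24 h value was -0.39 without the pituitary EE array of number 44 (adjusted p = 0.0569). On the other Klf6 probe set the 24 h difference was -0.36 ± 0.20 and did not pass. At 48 h, 2 of 4 passed (all genes, 36.4%), Klf4 with 0.97 ± 0.28 and Myc with -0.70 ± 0.16. At 72 h, 1 of 3 passed (all genes, 38.6%), Klf4 with 1.54 ± 0.28. Where blanks were filled, all 25 member tests could be made and 13 passed, among them some of Myc and Cebpb that had too few values before. The share of all genes that passed in that run was not counted. The effect in uterus minus that in pituitary was then 0.56 for Myc at 4 h (adjusted p = 0.00583) and -0.87 at 72 h (1.37e-05). Every pituitary control of Myc was blank at 4 h, and those measured at other times read 16.4 to 19.3. At 48 h filling lowered the pituitary difference of Myc from 0.59 to 0.43, so the fill lay above the measured controls. The 0.56 at 4 h thus depends on the level of the fill and cannot decide whether the tissues differed. For Cebpb the effect in uterus minus that in pituitary was 1.61 at 8 h (8.80e-10), 0.52 at 24 h (0.047) and 0.79 at 72 h (0.00171). In the pituitary Cebpb had 0 EE values at these 3 times, and 2, 1 and 1 control values. The pituitary side of these differences thus rests largely on fills.

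Without EE, all 3 members that could be compared differed between tissues, as did 86.6% of 6034 genes. Control uterus minus control pituitary, over the 5 shared times, was 0.71 ± 0.08 for Klf4, 0.67 ± 0.05 for Klf6 and -0.17 ± 0.06 for Klf10. The other Klf6 probe set gave 0.27 ± 0.06. These tissue differences assume that the authors' scaling serves both tissues alike. The 3′ to 5′ difference of Actb also separated the tissues, at 0.0665 to 1.09 on uterus arrays and 1.23 to 1.86 on pituitary arrays. Its part in the comparisons between tissues was not tested.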

How the data were processed

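RNA of 70 uterus and 30 pituitary samples was hybridised to Affymetrix RAE230A arrays, per the labels. The authors deposited linear intensity values per probe set, of which 37.2% were blank. The method of summary and scaling is not given in the sources used here. Single-gene probe sets were named from the platform annotation, with symbols updated through gene identifiers to RefSeq (12748 of 12783), and a gene was read from its probe set with the highest mean. Values were changed to log2(intensity + 30.4), the offset being the 10th percentile of all values. Blanks were left out, and a gene was tested with at least 3 values in each uterus group and 2 in each pituitary group. Per tissue, or over all 100 arrays between tissues, group means were fitted, and variances were moderated with limma 3.58.1 (R 4.3.3), two-sided. Scripts were tested on simulated data. Members and gene lists were chosen with earlier results of these data known. Besides the members, the text names the 3 genes nearest in pattern to each member, up to 4 genes per list with the smallest adjusted p, genes that small counts need, and a few further list genes chosen after their values were seen (Junb, Max, Mycn, and Ddit3, Atf4, Nop56, Eif4a1, Klf2, Klf9, Klf15, Cebpz, Mxi1, Mxd4 and Ruvbl1 at further times). Offset, scaling, filter, blanks, probe set choice, the groups in the fit (all, or only the 2 compared), the shared title number as a block and each array left out were varied.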

Additional observations from a re-analysis of the deposited data

Results flagged for a closer look

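Of 84 uterus groups of 5 arrays tested for an outlying array over the 6 probe sets, 3 had one, and chance alone would mark about 1 in 20. Klf6 on its main probe set had its highest EE array at 8 h at 125.8, with the next at 100.1. On its other probe set the lowest control array at 8 h was at 89.9, with the next at 108. Myc had its lowest EE array at 28 h at 118.9, with the next at 181. The Klf6 difference at 8 h on the main probe set and the Myc difference at 28 h passed with and without these arrays. The other Klf6 probe set was not refitted without its outlying array.

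Effects of EE that differed between times or tissues gave 27 results. The F statistic over the 7 uterus times was 6.12 for Klf4, 5.13 for Klf6, 3.78 for Klf10, 40.03 for Cebpb and 47.02 for Myc. Between neighbouring times the changes in Klf4 were -0.96 from 8 to 24 h, 1.13 from 24 to 28 h and -0.88 from 28 to 48 h. In Cebpb they were 0.50 from 2 to 4 h, -1.04 from 4 to 8 h, -1.01 from 8 to 24 h, 1.11 from 24 to 28 h and -0.94 from 28 to 48 h. In Myc they were -1.21 from 8 to 24 h, 0.94 from 24 to 28 h and -0.78 from 28 to 48 h. The effect at 28 h minus that at 4 h was -0.94 in Cebpb and -0.48 in Myc. Uterus minus pituitary was 1.78, 1.63, 0.63, 0.97 and 1.54 in Klf4 at 4, 8, 24, 48 and 72 h. It was -0.67 at 8 h and -0.46 at 24 h in Klf6, 2.17 at 4 h in Cebpb and -0.70 at 48 h in Myc.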

How the results depend on the processing

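No call on a member changed sign under any alternative run. Of 1104 member values under alternatives other than leaving out an array, 1090 kept their side of the threshold, 9 lost it and 5 gained it. The count of passing tests in uterus against control, 24, ranged from 22 to 25 over the arrays left out in turn. Over those arrays the count between neighbouring times ranged from 11 to 14, that at 28 against 4 h from 2 to 3, that between tissues from 7 to 9 and that between control tissues from 2 to 3. In pituitary against control it was 0 to 1. The counts were 5 over uterus times and 1 over uterus controls without each array, and 0 for both pituitary F tests. With a value required on every array, 4 of 12 tests between tissues passed in place of 9 of 17. With blanks filled, 2 pituitary tests passed, both of Myc, 13 of 25 tests between tissues passed, and all 5 members differed between control tissues. In the main fit 86.6% of all genes differed between control tissues. The share of all genes that passed was not counted in any alternative run, so these member counts have no background beside them. In a fit of only the 2 groups compared, Klf6 in uterus lost its call at 28 h (adjusted p = 0.0783) and gained one at 72 h (0.041). Between neighbouring times the main Klf6 probe set passed from 2 to 4 h without any 1 of 5 of 20 arrays (adjusted p = 0.0179 to 0.0448), from 4 to 8 h without any 1 of 5 (0.0174 to 0.0475) and with arrays centred on their medians or probe sets averaged, and from 28 to 48 h without the control array of number 50 (0.0123), as did 28 against 4 h (0.032). Klf10 passed from 8 to 24 h without the EE array of number 35 at 8 h (0.0419) and from 24 to 28 h without the control array of number 42 at 24 h (0.0444). Titles give uterus and pituitary samples shared numbers. Over 27 pairs the deviations correlated at -0.0665 to 0.162, above 0.1 in 8. Each of these pituitary samples was compared with the 5 uterus samples of its treatment and time. With unrelated numbers 1 in 5 would correlate best with its own number by chance, and 12 of the 27 did. Whether samples of 1 number share an animal is not stated by the labels, and the main tests between tissues treated them as independent. With the number as a replicate block on the 4847 genes with values on all arrays, 2 of 10 tests between tissues passed, since fewer members could be fitted. In the blocked fit of all genes tested, an alternative chosen after seeing the data, 8 of 17 passed. The number of arrays limits the precision of every value.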
